A study of Mus musculus with 2 samples.

Results

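Chemokine receptor transcripts were compared between a Cpdm and a wildtype culture of unsorted mouse bone marrow, 2 cultures in all. The members, chosen with earlier results of these data known, were Ccr1, Ccr2, Ccr3, Ccr7, Cx3cr1, Cxcr3, Cxcr4, Cxcr6 and Ccrl2. They were matched by name in the platform annotation. These 9 genes, out of 18193 genes with a probe set that names a single gene, were read by 15 probe sets out of 34945. Cpdm is the chronic proliferative dermatitis mutant, a spontaneous line without working SHARPIN, a component of the enzyme complex that builds linear ubiquitin chains. Both cultures were grown for 10 days with ascorbic acid at 50 µg/ml and β-glycerophosphate at 10 mM, which drive marrow stromal cells towards bone formation, and neither received any further treatment. The strain background, age and sex of the mice and how many mice each culture came from were not given in the sources used here. Since cells were not sorted, blood cells remain beside the stromal cells, and fewer cells of a type cannot be told apart from less RNA per cell.

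Chemokine receptors are G protein-coupled receptors that guide migrating cells along gradients of secreted chemokines. Most of them signal through inhibitory G proteins to phosphoinositide kinases, calcium and Rac-driven actin assembly, and are then shut off by receptor kinases, arrestins and regulators of G protein signalling. In bone marrow, Cxcr4 holds blood cell precursors in the niche, Ccr2 is needed for monocytes to leave it, and Ccr1 and Cx3cr1 are carried by monocytes, macrophages and osteoclast precursors. Atypical receptors bind chemokines without coupling to G proteins and act as scavengers.

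With 1 array per genotype there was no replicate, so every difference describes this array pair and no p-value is given. Signals are the authors' MAS5 intensities, with a floor at the 40th percentile of each array, 18.5 in Cpdm and 18.7 in wildtype; a gene was called measured when its probe set reached the floor in at least 1 array. Spike-in transcripts added at hybridisation averaged a log2 ratio of 0.01 ± 0.11 (SD over 18 probe sets), which covers technical noise alone. Log2 ratios of the strongest pair of probe sets of a gene differed with a robust SD of 0.45, which is 0.32 per probe set. This was taken over 5250 genes with such a pair above the floor in both arrays, so scatter near the floor is not covered. Sharpin transcript read 162 in Cpdm and 197 in wildtype, which does not check the genotype because the mutation need not remove the transcript. The 18S ribosomal RNA controls were lower in Cpdm, with log2 ratios between -3.75 and -2.37, and the X-inactivation RNA Xist was 4.51-fold higher while the Y-linked Uty was 3.77-fold lower. These differences run alongside genotype and their part in the results below was not tested.

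Among the 7 receptors measured, Cx3cr1, Ccr1, Cxcr6 and Ccr2 (4 genes) passed 2-fold on the higher side, none did on the lower side and 3 lay between. Across all 14055 measured genes, 5.84% were at least 2-fold higher and 5.98% at least 2-fold lower. A log2 ratio above 0 was found for 6 of the 7 and for 52.4% of all measured genes. At 1.5-fold the count higher in Cpdm was 6, and at 3-fold it was 3. The shares of all measured genes past these folds were not counted. The lowest of the 6, Cxcr3, was exceeded by 12.8% of all measured genes, and the lowest of the 3, Cxcr6, by 0.633%. The median log2 ratio was 1.32 over the measured members and 0.03 over all measured genes. All 7 measured members reached the floor in both arrays by their representative probe set, the one with the highest mean log2 signal, so none was counted through the Cpdm array alone. Ccr3 and Ccr7 lay below the floor in both arrays and have no fold.

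**Figure D1:**
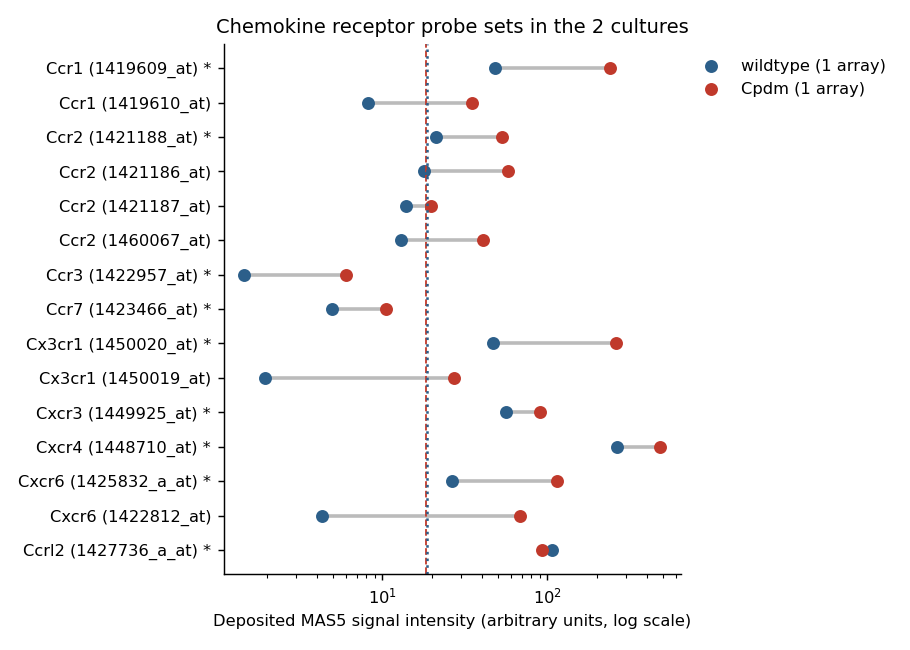
Deposited signal of every probe set of the 9 receptor genes, on a log scale, with the Cpdm array in red and the wildtype array in blue; the dashed red and dotted blue lines are the floors of 18.5 and 18.7, and a star marks the representative probe set. The Cpdm point lies to the right of the wildtype point except for Ccrl2. The points of Ccr3 and Ccr7 lie under both floors, so their order is not read as a direction. Probe sets of the same gene are not independent readings, and levels are not compared between genes.

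The receptors more than 4-fold higher were Cx3cr1, Ccr1 and Cxcr6. Their promoters are shown together with that of Cxcr4, a receptor under 2-fold, so that the stretches next to the starts can be compared. Each is the 250 bases before the start in RefSeq, build GRCm38.p6, written 5′ to 3′ on the gene's strand, and capitals mark a match to any of the motifs named in the next paragraph. The Cx3cr1 stretch is chr9:120068297-120068546 on the minus strand, that of Ccr1 is chr9:123968693-123968942 on the minus strand, that of Cxcr6 is chr9:123806227-123806476 on the plus strand and that of Cxcr4 is chr1:128592300-128592549 on the minus strand.
Cx3cr1: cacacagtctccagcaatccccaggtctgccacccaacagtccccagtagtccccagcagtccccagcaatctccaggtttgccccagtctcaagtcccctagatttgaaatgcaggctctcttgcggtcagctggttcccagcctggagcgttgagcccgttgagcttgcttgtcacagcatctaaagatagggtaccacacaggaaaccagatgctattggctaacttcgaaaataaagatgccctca
Ccr1: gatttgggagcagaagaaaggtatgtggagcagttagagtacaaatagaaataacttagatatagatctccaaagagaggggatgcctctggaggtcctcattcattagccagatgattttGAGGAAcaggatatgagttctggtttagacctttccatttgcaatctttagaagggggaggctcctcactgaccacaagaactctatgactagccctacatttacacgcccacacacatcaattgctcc
Cxcr6: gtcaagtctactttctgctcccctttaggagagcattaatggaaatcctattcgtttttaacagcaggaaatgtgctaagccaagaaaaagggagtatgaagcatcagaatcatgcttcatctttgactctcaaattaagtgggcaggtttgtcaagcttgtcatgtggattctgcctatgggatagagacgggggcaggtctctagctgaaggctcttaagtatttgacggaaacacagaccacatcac
Cxcr4: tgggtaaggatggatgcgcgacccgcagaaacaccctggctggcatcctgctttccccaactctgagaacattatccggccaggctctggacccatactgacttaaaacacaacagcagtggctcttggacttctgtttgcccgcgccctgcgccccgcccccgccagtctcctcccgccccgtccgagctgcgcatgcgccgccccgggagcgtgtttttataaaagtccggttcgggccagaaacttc

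The Cxcr4 stretch was richer in G and C, at 61.2% with 19 CG dinucleotides, than those of Cx3cr1 at 53.6% with 4, Ccr1 at 43.6% with 1 and Cxcr6 at 43.6% with 3. The other measured members under 2-fold were also lower than Cxcr4. Cxcr3 was at 48% with 3, and the 3 start sites of Ccrl2 at 54%, 50.8% and 51.2% with 5, 6 and 7. The median over 32851 stretches of the same length was 52.4% with 6 CG dinucleotides. A total of 5 motifs were searched on both strands. The PU.1-type motif GAGGAA, a core bound by the myeloid factor PU.1, occurred once in the Ccr1 stretch, 129 to 124 bases before the start, and in 23.3% of all stretches. It was also found for Ccr3 and Cxcr3. The NF-κB motif GGNNTTTCC, in 4.93% of all stretches, matched Ccr3, where it overlaps the PU.1-type match, and the first of 3 start sites of Ccrl2. The AP-1 motif TGANTCA, in 6.75% of all stretches, matched Ccr3, and the interferon response motif GAAANNGAA, in 7.13%, matched Ccr2. The C/EBP motif TTGCNNAA, in 9.56% of all stretches, matched none of the 8 members with an entry. Of the 4 stretches shown, only that of Ccr1 holds a match. A match or its absence describes these letters in this window.

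Among the receptors for CC chemokines, Ccr1 differed most. Ccr1, a receptor for Ccl3, Ccl5 and related chemokines on monocytes and osteoclast precursors, read 238 in Cpdm and 48.1 in wildtype. That is 4.96-fold higher in Cpdm, with a log2 ratio of 2.31, and 0.384% of all measured genes had a larger one. Its other probe set read 35.0 against 8.15, below the floor in wildtype, which makes it at least 1.87-fold higher.

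Ccr2, the receptor that brings monocytes out of the marrow towards Ccl2, had 4 probe sets close to the floor. The representative one read 53.1 in Cpdm and 21.2 in wildtype, 2.50-fold higher. The other 3 were below the floor in wildtype, at 57.6 against 17.8, 40.5 against 12.9 and 19.7 against 14.0, which gives folds of at least 3.07, 2.16 and 1.05. All 4 read higher in Cpdm, and 3 of the 4 had their wildtype value under the floor. With the floor at the 60th percentile the Ccr2 log2 ratio was 0.42, under the 2-fold line.

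Ccr3, the eotaxin receptor of eosinophils and basophils, read 6.06 and 1.46. Ccr7, which guides dendritic and T cells to lymph nodes, read 10.5 and 4.95. Both are under the floor of both arrays, where MAS5 signals are noisy, so neither is given a fold. Eosinophil markers were also scarce: of 4 with a probe set, only Prg2 was measured, at 21.9 against 13.3.

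Cx3cr1, the fractalkine receptor of monocytes, macrophages and osteoclast precursors, had the largest ratio among the members. It read 259 in Cpdm and 46.9 in wildtype, 5.53-fold higher. Its other probe set read 27.3 against 1.96, and since wildtype lies under the floor this is at least 1.46-fold higher. The log2 ratio of the representative probe set was 2.47, and 0.313% of all measured genes had a larger one.

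The CXC receptors split by size. Cxcr6, the receptor for the membrane-bound chemokine Cxcl16 on T cells, NK cells and related lymphocytes, read 114 in Cpdm and 26.3 in wildtype, 4.32-fold higher. The second Cxcr6 probe set read 67.9 against 4.30, at least 3.62-fold higher. Cxcr6 thus passed 2-fold by each of its probe sets, by value or by bound, which Ccr1, Ccr2 and Cx3cr1 did not. The probe sets of Ccr1, Ccr2 and Cx3cr1 that fell short give lower bounds, so a smaller difference is not shown.

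Cxcr4, the Cxcl12 receptor of blood cell precursors and most leukocytes, read 480 in Cpdm and 262 in wildtype. This is 1.83-fold higher, a log2 ratio of 0.87, under the 2-fold line. Cxcr3, the interferon-linked receptor of activated T and NK cells, read 90.02 and 56.2, 1.60-fold higher. Cxcr3 lies on the X chromosome, and Xist differed between the arrays; its part in the Cxcr3 value was not tested. Each of these genes has 1 probe set, so no second reading stands beside it.

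Ccrl2, a receptor-like protein that binds the attractant chemerin without known signalling of its own, was the only measured member below 0. It read 92.6 in Cpdm and 107 in wildtype, 1.15-fold lower. The log2 ratio of -0.21 is smaller in size than the robust SD of 0.32 per probe set. Its single probe set ends in _a_at, a class that reads several transcripts of a gene.

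Several members lie side by side on chromosome 9. In the RefSeq order of protein-coding genes (assembly GRCm38.p6), the run is Ccr9, Fyco1, Cxcr6, Xcr1, Ccr1, Ccr1l1, Ccr3 and Ccr2. Cxcr6, Ccr1 and Ccr2 passed 2-fold, while none of the measured genes beside them did. Fyco1, an adaptor for vesicle transport, read 118 against 106, Xcr1 17.3 against 19.1 and Ccr1l1 20.8 against 28.7, with the values of both receptors near the floor. Ccr9 and Ccr3 were below the floor in both arrays.

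The other receptors listed, which include receptors for chemerin, were mixed in direction. Of 12 measured, 5 were above 0 and 7 below, and the median log2 ratio was -0.13. They were 6 signalling chemokine receptors, 4 atypical receptors and 2 chemerin receptors. Of the 6 signalling chemokine receptors, 1 was above 0 and 5 below, with a median log2 ratio of -0.37 and none past 2-fold upwards. Both chemerin receptors were above 0. Past 2-fold, 1 was higher, the chemerin receptor Cmklr1, and 2 were lower, beside 5.84% and 5.98% of all measured genes. Several read near the floor. Members and lists were chosen with earlier results of these data known, so their contrast is a description and no test. Cmklr1, the signalling chemerin receptor of macrophages, read 203 against 84.8, 2.39-fold higher, and Gpr1, which also binds chemerin, read 45.8 against 30.4. Ccr6, a receptor of lymphocytes and dendritic cells, read 28.3 against 61.8, 2.18-fold lower. Ccr4 read 19.5 against 30.5, and Ccr10 and Cxcr5 reached the floor in 1 array only, at 9.03 against 22.4 and 22.6 against 12.9. Ccr8, Ccr9 and Cxcr2 were not measured.

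Among the atypical receptors, Ackr3 had the lowest ratio by representative probe sets. Ackr3, a scavenger of Cxcl12 also known as Cxcr7, read 158 in Cpdm and 711 in wildtype, 4.50-fold lower, by a probe set ending in _s_at that can bind related transcripts. Cxcl12 itself read 1526 against 736, 2.07-fold higher, with other probe sets at 2.78-fold and at least 1.05-fold higher. The Cxcl12 receptor Cxcr4 and its scavenger Ackr3 therefore differed in opposite directions in the same pair. Stromal cells are a main source of Cxcl12. In the stromal and osteoblast list 5 of 12 measured markers were at least 2-fold lower and 1, Cxcl12, was higher. Over all measured genes, 5.98% were lower and 5.84% higher by that fold. The part of stromal cells in the Ackr3 value was not tested. Ackr4 read 123 against 118 by its representative probe set, but another probe set read 20.7 against 230, 11.1-fold lower, and the direction of Ackr4 is not settled. Ackr1 read 96.7 against 69.0 and Ackr2 25.03 against 29.0.

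Most measured ligands of the members were higher in the same culture. Of 17 measured ligands, 8 passed 2-fold upwards and none downwards, beside 5.84% and 5.98% of all measured genes. The median log2 ratio was 0.95 over the ligands and 0.03 over all measured genes, and 2 ligands were below 0. All 4 genes listed here as ligands of Ccr2 were above 0. Which receptor each of them acts through in the mouse was not tested. Ccl8 read 1754 against 73.2, 24.0-fold higher, and Ccl12 read 666 against 69.7, 9.55-fold higher, while Ccl7 at 449 against 233 and Ccl2 at 549 against 337 stayed under 2-fold. For Ccr1, Ccl5 read 67.6 against 22.2, 3.04-fold higher, and Ccl9 and Ccl6 were 2.09-fold and 2.01-fold higher, whereas Ccl3 and Ccl4 were near equal at 348 against 298 and 305 against 322. Thus the receptor Ccr1 and only part of its ligands passed 2-fold.

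Receptors with a single dedicated ligand could be set beside it. Cxcl16, the ligand of Cxcr6, read 578 against 243, 2.38-fold higher, and 2.78-fold by its other probe set. Cx3cl1, the ligand of Cx3cr1, read 88.8 against 51.9, 1.71-fold higher. Among ligands of Cxcr3, Cxcl10 read 66.9 against 20.6, 3.24-fold higher, Cxcl11 read 21.5 against 25.01 and Cxcl9 was below the floor in both arrays. Mif, a further ligand of Cxcr4, was near equal at 1749 against 1551. The Ccr3 ligand Ccl24 read 25.5 against 5.83, at least 1.36-fold higher, and Ccl11 was not measured. Rarres2, the gene of chemerin, read 22.4 against 2.89, at least 1.19-fold higher.

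**Figure D2:**
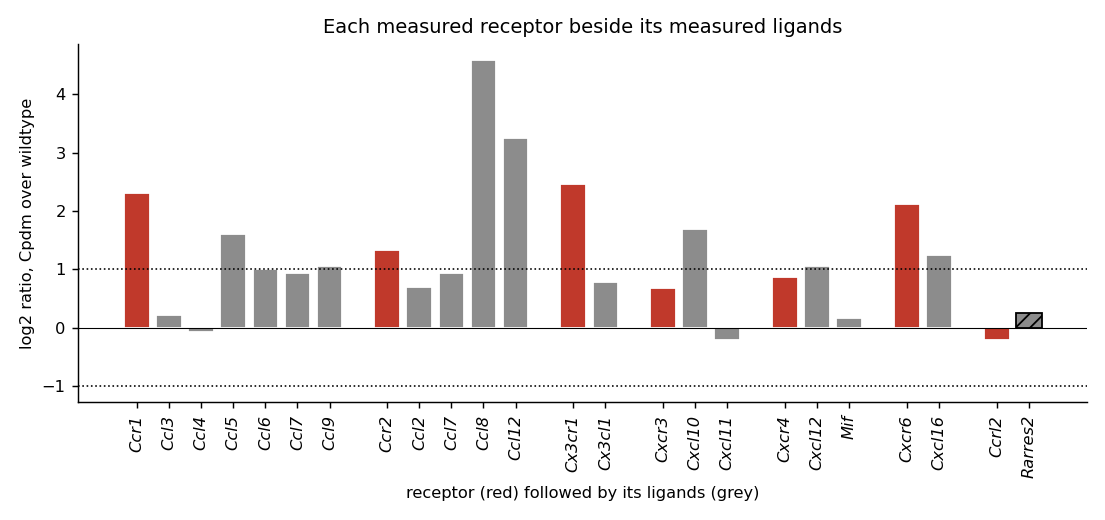
The log2 ratio of signal, Cpdm over wildtype, for each measured receptor (red bar) followed by its measured ligands (grey bars), with 1 array per genotype and no error bars; dotted lines mark 2-fold and a hatched bar is a lower bound. Ccl8 and Ccl12, at 4.58 and 3.26, lie above Ccr2, under which they were listed, at 1.32. Ccr1, Cx3cr1 and Cxcr6 exceed each of their plotted ligands.

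Genes that act downstream of chemokine receptors were higher in part. Of 53 measured, 16 passed 2-fold upwards and 2 downwards, beside 5.84% and 5.98% of all measured genes. The median log2 ratio of the 53 was 0.61. Among 9 measured G protein subunits only Gnai1 passed 2-fold. Gnai1, an inhibitory alpha subunit, read 111 against 1473, 13.3-fold lower, and 7.27-fold and at least 4.55-fold lower by its other probe sets. Gnai2, the inhibitory alpha subunit that predominates in leukocytes, read 1738 against 1187, 1.46-fold higher; it was named after its value was seen.

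Of 13 measured genes that switch the receptors off, 7 were at least 2-fold higher and 1 was lower. The shares of all measured genes were 5.84% and 5.98%. Rgs16, a regulator of G protein signalling, read 345 against 104, 3.31-fold higher, with other probe sets at 2.61-fold and 1.30-fold. The receptor kinase gene Grk5 read 94.1 against 30.7, 3.06-fold higher. Arrb2, which encodes β-arrestin 2, read 822 against 271, 3.03-fold higher, but 1.45-fold by its other probe set. Rgs3 was 2.01-fold lower, with other probe sets 4.88-fold lower and 1.18-fold higher.

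The arms towards actin, kinases and integrins had 9 genes at least 2-fold higher and none lower among 31 measured. Across all measured genes the shares were 5.84% and 5.98%. Rhoh, a small GTPase of blood cells, was 3.31-fold higher, Dock2, the Rac activator of migrating leukocytes, 2.81-fold (1.24-fold by another probe set) and Was, which drives actin branching, 2.49-fold. The protein kinase C gene Prkcb was 3.30-fold, the focal adhesion-related kinase gene Ptk2b 2.56-fold and Pik3cg, the phosphoinositide kinase of G protein-coupled receptors, 2.16-fold higher. The integrin activators Fermt3 and Tln1 were 2.51-fold and 2.44-fold higher. Several of these genes are expressed mainly in blood cells.

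Markers of the cells that carry these receptors were measured beside them. Macrophage and monocyte markers were strong in both arrays, with a summed signal of 35734 in Cpdm and 26707 in wildtype over 18 genes. Of these, 5 passed 2-fold upwards and none downwards, beside 5.84% and 5.98% of all measured genes. The median log2 ratio of the 18 was 0.50, with a range from -0.40 to 1.76. The Fc receptor gene Fcgr1, the leukocyte phosphatase gene Ptprc (CD45) and the uptake receptor gene Mertk were 3.39-fold, 2.74-fold and 2.14-fold higher. The strongest signals, of Lgals3, Fcer1g, Tyrobp and Lyz2, had log2 ratios of -0.07, 0.46, 0.46 and -0.40. The part of macrophage number in the receptor values was not tested.

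The ratios of Cx3cr1, Ccr1 and Cxcr6 exceeded those of all 18 macrophage markers by the representative probe sets. They were all exceeded by 1 of 11 dendritic cell markers, H2-Aa, at a log2 ratio of 2.51. The same held for 1 of 12 T and NK cell markers, Cd4, at no less than 2.97. By the same probe sets Ccr2 was exceeded by 2 macrophage markers, Cxcr4 and Cxcr3 by 6 each and Ccrl2 by 17. With the mean over probe sets, a comparison added after the data were seen, 1 of 18 markers exceeded Cx3cr1, none exceeded Ccr1 or Cxcr6, 4 exceeded Ccr2, 7 each exceeded Cxcr4 and Cxcr3, and 17 exceeded Ccrl2. Csf1r, the macrophage growth factor receptor gene, named after its values were seen, was 1.37-fold higher by its strongest probe set at 3199 against 2331, and 2.38-fold and 2.18-fold by its weaker ones.

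T and NK cells are known carriers of Cxcr6 and Cxcr3, and their markers were read beside these receptors. Of 12 measured T and NK cell markers, 1 passed 2-fold upwards and none downwards, beside 5.84% and 5.98% of all measured genes. Their median log2 ratio was 0.01, and their summed signal over 15 genes was 862 in Cpdm and 872 in wildtype. The strongest were Il7r at 152 against 242, Zap70 at 142 against 191, Cd28 at 112 against 106 and Cd8a at 94.7 against 123. Other probe sets of Zap70 and Cd8a lay near or below the floor. The T cell receptor subunit genes Cd3d and Cd3g were below the floor in both arrays and Cd3e read 25.7 against 30.4, named after their values were seen. Cd4, which mouse T cells and some macrophages carry, read 147 against 18.4, at least 7.83-fold higher. Its other probe set was below the floor in both arrays, at 1.70 against 1.19. The part of lymphocyte number in the Cxcr6 and Cxcr3 values was not tested. In the dendritic cell list 3 of 11 measured markers were at least 2-fold higher, H2-Aa, Cd74 and H2-Eb1, and 1, Zbtb46, was lower; H2-Aa was 5.68-fold higher but 1.75-fold by another probe set above the floor.

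The remaining marker lists were short and had at most 1 member past 2-fold in each direction. Over all measured genes, 5.84% were at least 2-fold higher and 5.98% lower, and lists this short cannot be set against these shares. The counts at least 2-fold higher and lower were 1 and 0 of 7 measured B cell and plasma cell markers, 0 and 1 of 8 neutrophil markers, 1 and 1 of 6 mast cell and basophil markers and 0 and 1 of 9 osteoclast markers. In the mast cell and basophil list Mcpt8, a basophil protease gene, was 5.24-fold higher and Kit 2.39-fold lower. In the osteoclast list the marker past 2-fold was Car2, at 16.5 in Cpdm, under the floor, and 182 in wildtype, at least 9.83-fold lower. The osteoclast genes Ctsk, Acp5 and Atp6v0d2 read 969 against 1890, 156 against 157 and 759 against 767.

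**Figure D3:**
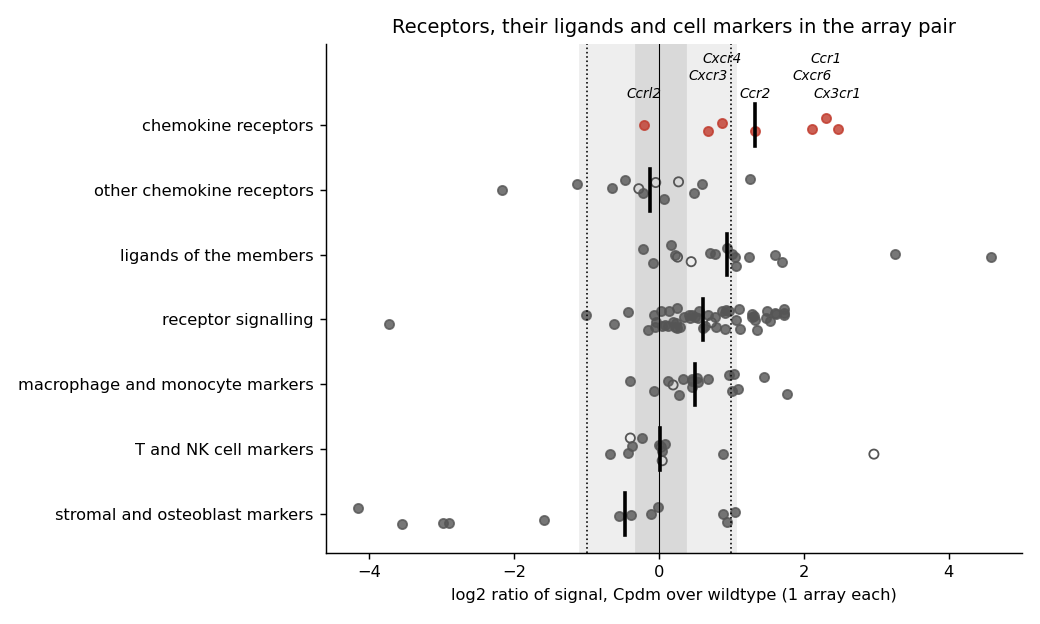
The log2 ratio of signal, Cpdm over wildtype, for every measured gene of the receptor list (red) and of 6 other lists (grey), with 1 point per gene, open circles for lower bounds, black bars for medians, dotted lines at 2-fold, and shading for the middle 50% and 90% of all measured genes. The members' median of 1.32 lies right of the bars for ligands at 0.95, receptor signalling at 0.61 and macrophage markers at 0.50, with T and NK cell markers at 0.01 and stromal markers at -0.47.

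The size of the receptor ratios depended more on the choice of probe set and floor than on scaling. Under the 3 other scalings of the arrays, 4 members stayed at least 2-fold higher each time. With each gene's weakest measured probe set, only Cxcr6 passed 2-fold; for Cxcr6, Ccr1, Cx3cr1 and Ccr2 that probe set was under the floor in wildtype, so these values are lower bounds. Cxcr6 was at least 2-fold higher under all 10 alternatives, Ccr1 and Cx3cr1 under 9 and Ccr2 under 7. These are not counts of separate checks. The 4 representative probe sets lie above the floor in both arrays, so a lower floor or none left their values unchanged. The floor at the 60th percentile also left Ccr1 and Cx3cr1 unchanged. Leaving out probe sets ending in _s_at, _x_at and _a_at left Ccr1, Cx3cr1 and Ccr2 unchanged. Cxcr4 and Cxcr3 have 1 probe set each, above every floor used, so only the 3 scalings and the pseudocount could move their values; their log2 ratios ranged from 0.83 to 0.89 and from 0.55 to 0.70.

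**Figure D4:**
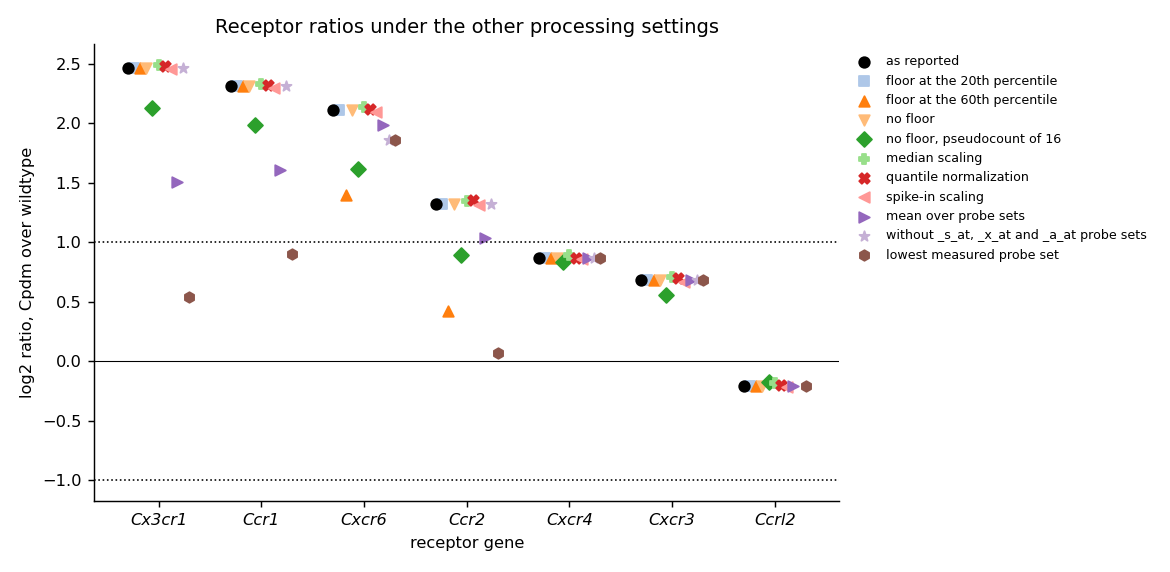
The log2 ratio, Cpdm over wildtype, of the 7 measured receptors under the reported setting (black) and each alternative (other symbols), with dotted lines at 2-fold. Cxcr4, Cxcr3 and Ccrl2, with 1 probe set each, hardly move, and the lowest points of Cx3cr1, Ccr1 and Ccr2 come from the weakest measured probe set, at 0.54, 0.90 and 0.07.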

How the data were processed

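RNA from 1 Cpdm and 1 wildtype culture was turned into biotin-labelled cRNA from 5 µg total RNA, per the labels' protocols, and hybridised to 1 Affymetrix array each. The authors deposited linear signal intensity values for 45101 probe sets; the software, per the submitters' processing notes, was GCOS 1.4 with MAS5. The trimmed mean, without the lowest and highest 2%, was 100.001 in both arrays, so both columns were scaled alike; background settings and a genome build were not given in the sources used here. Here the number of arrays limits the precision.

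Of 45037 probe sets that are not controls, 34945 name 1 gene, 932 name several and 9160 are not listed in the platform annotation; Entrez identifiers matched a current record for 34741, and no symbol changed. Signals under the floor were set to it, and a ratio with 1 array at the floor is written "at least". Where a gene has several probe sets, the strongest on average over the log2 signals represents it. Genes are counted at 2-fold. The text names all members, all measured other receptors and ligands, up to 3 genes per direction past 2-fold for each signalling role, and up to 4 strong and 3 changed genes per marker list; other names are marked as chosen later. Members and lists were chosen with earlier results of these data known. The fold calls were tested on simulated data with changes placed only in genes of stronger signal. The calling of changes near the floor was therefore not tested. Promoters are from RefSeq, where 8 of 9 members have an entry. Python 3.11.15, numpy 2.4.6 and pandas 2.3.3 were used.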

Additional observations from a re-analysis of the deposited data

How the results depend on the processing

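Each receptor value was recomputed with another floor, scaling or choice of probe set. The count of members at least 2-fold higher was 4, and stayed within 1.5 times of it except with the weakest measured probe set, where it was 1; the count at least 2-fold lower was 0 throughout, with no test. The median log2 ratio of the members, 1.32 as reported, was 0.87 with the floor at the 20th percentile, where 9 members were measured, 0.87 with the floor at the 60th percentile, 0.83 with no floor and a pseudocount of 16, and 0.68 with the weakest measured probe set. None of the 7 measured members changed sign; Ccrl2 has no value when probe sets ending in _s_at, _x_at and _a_at are left out. For Ccr3 the log2 ratio was -0.02 with the floor at the 20th percentile and 2.05 with no floor, and for Ccr7 it was 0.77 and 1.08, which shows how far values under the floor depend on it. Over all measured genes, 821 higher and 840 lower at 2-fold became 1265 and 1397 with the floor at the 20th percentile and 1741 and 1885 with no floor. No paired analysis was possible because each genotype has 1 array. Leaving out a replicate was not possible for the same reason.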
